A study of Homo sapiens with 23 samples.

Results

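The transcripts described here are those of the mitochondrial ribosomal proteins, taken as every gene of the authors' deposited table whose symbol is MRPL or MRPS followed by a number and at most 1 letter from A to C. This rule found 78 of 21463 genes, of which 49 are named for the large (MRPL) and 29 for the small (MRPS) ribosomal subunit. They are the 78 protein-coding genes that the rule finds in GENCODE v29, all 78 had a mean level of at least 1 RPKM (reads scaled to exon length and to the library's reads), and all 78 were tested in all 4 comparisons.

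The mitochondrial ribosome translates the few mRNAs of the mitochondrial genome, which encode core subunits of oxidative phosphorylation. Its proteins are all made in the cytosol from nuclear genes and imported, and they include counterparts of bacterial ribosomal proteins as well as proteins found only in mitochondria. Doxycycline is a tetracycline antibiotic; tetracyclines bind the small subunit of bacterial ribosomes and can also slow protein synthesis in mitochondria, so that an agent used to switch on a transgene can itself touch this machinery.

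The cells were PC-3, an established human line from a prostate cancer metastasis, carrying by lentivirus a PARG cDNA with a cleavable mClover3 tag under the TetOne promoter, which doxycycline switches on; PARG removes poly(ADP-ribose) chains from proteins. I4 and H6, each a single clone, were kept for 72 h with 500 ng/ml doxycycline or without it, and poly(A)-selected RNA was sequenced in experiment N (passage 5, a kit keeping both strands) and experiment B (passage 7, a strand-specific kit). The 8 groups are I4 in N with and without doxycycline, H6 in N with and without, I4 in B with and without, and H6 in B with and without, in 23 libraries: 3 wells per group and 2 for H6 without doxycycline in B. The cells without doxycycline carry the construct too, and construct-free cells were not analysed here. Effects of doxycycline itself and of induced PARG therefore cannot be told apart. The comparisons of doxycycline with none are called I4-N, H6-N, I4-B and H6-B, after clone and experiment. Wells of 1 clone are the replicates, so the authors' q-values can reflect at most the spread between wells.

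The authors' deposited table gives, for each comparison of doxycycline with no doxycycline, the higher group mean, a signed fold and a q-value, and no value per library; hence no SD is given. The level of the other group was obtained by dividing by the fold and is approximate. PARG itself is 1.35-fold and 2.15-fold higher in I4-N and H6-N, and 1.40-fold and 1.99-fold higher in I4-B and H6-B of the authors' deposited table; the direction of all folds was read from it. The value of 1 read in rarely seen genes put the depth per library near 33.5 to 43.2 M reads for N and 20.7 to 26.5 M for B. Between about 203 (MRPL54) and 15779 reads per library, with a median of 1777, lay behind a mitochondrial ribosomal protein gene. KRT8, KRT18 and EPCAM, markers of an epithelial line, had levels of 4.15 to 127 RPKM in the 8 groups, while the epithelial marker CDH1 reached at most 0.394 RPKM, and KLK3, a secreted prostate protein known to be low or absent in PC-3, at most 0.00695 RPKM. Of the markers of other cells, the blood markers PTPRC and CD74, the fibroblast markers DCN and PDGFRB and the endothelial marker VWF reached at most 0.0515 RPKM, COL1A2 0.314 RPKM and PECAM1 1.34 RPKM, whereas COL1A1 had 5.74 to 17.7 RPKM.

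Most of the genes were not called changed. A gene is called changed here when the authors' q-value is under 0.05. In I4-N, 7 of the 78 genes were called (3 higher with doxycycline, 4 lower), a share of 8.97% beside 22.9% of the 10755 genes of at least 1 RPKM tested. In H6-N 10 were called (7 higher, 3 lower), a share of 12.8% beside 20.3% of all genes. In I4-B 8 were called (1 higher, 7 lower), a share of 10.3% beside 19.1% of all genes. In H6-B 3 were called (1 higher, 2 lower), a share of 3.85% beside 10.3% of all genes. The share of mitochondrial ribosomal protein genes called was thus below that of all genes in each comparison.

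By direction, 10.4% of all genes were called higher and 12.6% lower in I4-N, 9.77% and 10.5% in H6-N, 10.1% and 9.02% in I4-B, and 4.93% and 5.35% in H6-B. Over the 4 comparisons 19 of the 78 genes were called at least once, 8 of them higher and 11 lower, and none in both directions. The other 59 were called in none. Their largest folds in the authors' deposited table were 1.20-fold higher for MRPL33 in I4-N (q = 0.201), 1.15-fold higher for MRPL33 in H6-N (q = 0.0607), 1.17-fold lower for MRPS12 in I4-B (q = 0.0802) and 1.18-fold higher for MRPL36 in H6-B (q = 0.123). Of these 59, between 34 and 45 per comparison had an absolute log2 fold under 0.1. No share of all genes was computed for calls at least once, in both directions or in none, so these counts lack a background.

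Stricter rules left fewer calls, given here as counts of the 78 genes beside shares of all genes. The 5 rises in H6-N at a q-value under 0.01 stood near the share of all genes, and the other counts below theirs. At a q-value under 0.01, 1 member was higher and 3 lower in I4-N (6.85% and 8.8% of all genes), and 5 were higher and 1 lower in H6-N (6.37% and 7.04%). In I4-B 1 was higher and 3 lower at that threshold (6.98% and 6.36% of all genes), and in H6-B 1 was higher and 1 lower (3.04% and 3.59%). With a q-value under 0.05 and an absolute log2 fold of at least 0.3, 2 were higher and 1 lower in I4-N (6.63% and 7.35% of all genes), and 2 were higher and 0 lower in H6-N (5.31% and 5.37%). In I4-B 1 was higher and 3 lower by that rule (5.89% and 5.62% of all genes), and in H6-B 1 was higher and 1 lower (3.58% and 4.07%). MRPS6 was among the rises each time.

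As a set, both subunits stayed close to equality. The median log2 fold of the 49 large subunit genes was 0.02 in I4-N and 0.06 in H6-N, and -0.05 in I4-B and -0.02 in H6-B. That of the 29 small subunit genes was -0.004 and 0.02 in I4-N and H6-N, and -0.08 and -0.03 in I4-B and H6-B. Over all genes of at least 1 RPKM the 4 medians, in the same order, were -0.008, -0.006, 0.002 and 0.008. Medians of a set carry no test here, since no value per library was analysed.

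**Figure D1:**
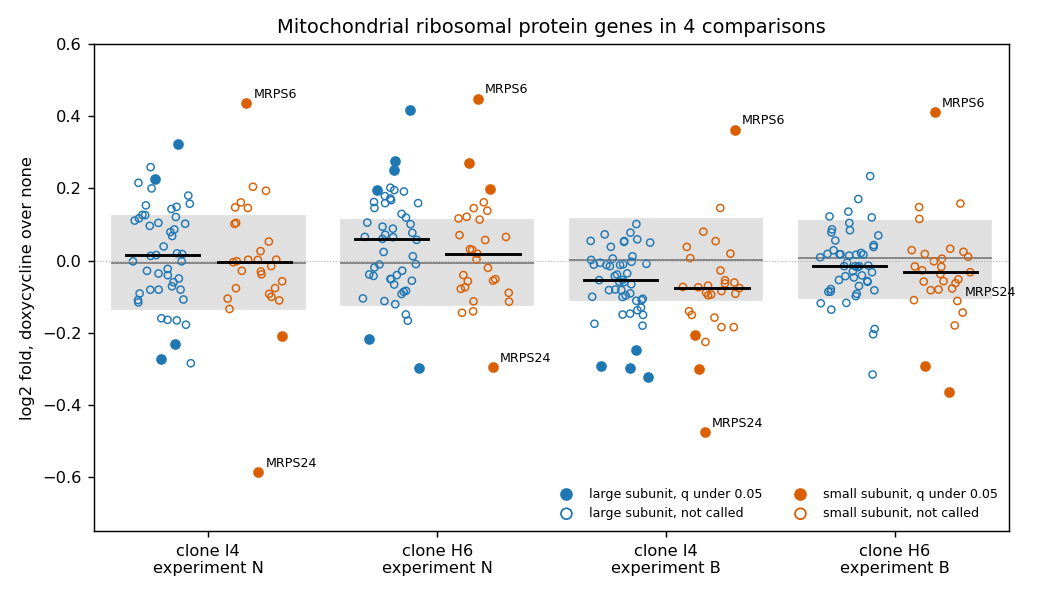
Each point is 1 mitochondrial ribosomal protein gene in 1 comparison, and the vertical axis is the log2 fold of the authors' deposited table, doxycycline over none; blue marks the large and orange the small subunit, and filled points have a q-value under 0.05. Black lines are the medians of each subunit, grey lines the median and grey boxes the interquartile range of all genes of at least 1 RPKM; MRPS6 lies above the other genes of its subunit in each comparison and most points lie inside the box.

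The spread was narrow as well. An absolute log2 fold over 0.3 was found for 3, 2, 4 and 3 of the 78 genes in I4-N, H6-N, I4-B and H6-B, and for 16.4%, 13%, 13.8% and 11.7% of all genes. The share with a positive log2 fold was 50% in I4-N and 56.4% in H6-N, against 24.4% in I4-B and 41% in H6-B; over all genes it was 48.3%, 48.5%, 50.5% and 51.7%. In all 4 comparisons 7 genes were positive (8.97%, with 24% of all genes) and 16 were negative (20.5%, with 24.6% of all genes). The 7 are MRPL23, MRPL28, MRPL39, MRPL44, MRPS10, MRPS14 and MRPS6. In both comparisons of experiment B 40 genes (51.3%) were negative, with 34.2% of all genes. These are counts of signs, and most of the folds behind them were not called.

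MRPS6 and MRPS24, the members called most often, are small subunit genes. By subunit, the counts called higher and lower were 2 and 2 of the large subunit and 1 and 2 of the small subunit in I4-N, and 4 and 2 of the large and 3 and 1 of the small subunit in H6-N. In experiment B they were 0 and 4 of the large and 1 and 3 of the small subunit in I4, and 0 and 0 of the large and 1 and 2 of the small subunit in H6. The shares called in I4-N, H6-N, I4-B and H6-B were 8.16%, 12.2%, 8.16% and 0% of the large subunit. Of the small subunit they were 10.3%, 13.8%, 13.8% and 10.3%, beside 22.9%, 20.3%, 19.1% and 10.3% of all genes. Of the 19 genes called at least once, 10 are named for the large subunit and 9 for the small. MRPS30, among the 9, sits in the large subunit. Split by descent, 46 genes were classed as having a bacterial homolog and 31, among them MRPS18A and MRPS18B, as specific to mitochondria. MRPS36 was left out, since its product is now assigned to the alpha-ketoglutarate dehydrogenase complex. The bacterial homologs had 4, 9, 7 and 2 genes called and the mitochondria-specific proteins 3, 1, 1 and 1, in I4-N and H6-N and in I4-B and H6-B. These are shares of 8.7%, 19.6%, 15.2% and 4.35% of the homologs and of 9.68%, 3.23%, 3.23% and 3.23% of the mitochondria-specific proteins, each below the 22.9%, 20.3%, 19.1% and 10.3% of all genes.

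MRPS6 (ENSG00000243927.5) was the 1 gene of the 78 called in all 4 comparisons, and it was higher with doxycycline each time. Over all genes, 2.27% were called higher and 2.65% lower in all 4. MRPS6 encodes a small subunit protein with a bacterial homolog, which binds ribosomal RNA in the platform of the subunit. It lies on chromosome 21 from 34073224 to 34143034 on the plus strand (GRCh38, GENCODE v29).

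In I4-N MRPS6 had 80.5 RPKM with doxycycline and about 59.6 RPKM without, 1.35-fold higher in the authors' deposited table (q = 2.57e-08). In H6-N it had 98.2 RPKM with doxycycline and about 72.0 RPKM without, 1.36-fold higher in the authors' deposited table (q = 7.59e-09). In I4-B it had 71.6 RPKM with doxycycline and about 55.7 RPKM without, 1.29-fold higher in the authors' deposited table (q = 2.3e-05). In H6-B it had 85.2 RPKM with doxycycline and about 64.1 RPKM without, 1.33-fold higher in the authors' deposited table (q = 2.74e-05). All 4 folds of MRPS6 thus lay between 1.29 and 1.36, in both clones and with both kits.

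MRPS6 shares its start with SLC5A3, the gene of a sodium-dependent myo-inositol transporter that cells use to take up osmolytes. In RefSeq both transcripts begin at position 34073578 of chromosome 21, their promoter windows are identical, and 273 bases of exon are common to both, 6.35% of the exons of MRPS6. In I4-N SLC5A3 had 8.02 RPKM with doxycycline and about 7.52 RPKM without, 1.07-fold higher and not called in the authors' deposited table (q = 0.542). In H6-N it had 15.2 RPKM with doxycycline and about 11.7 RPKM without, 1.30-fold higher in the authors' deposited table (q = 1.41e-06). SLC5A3 was also called in experiment B, at 1.26-fold higher in I4 (q = 6.14e-05) and 1.41-fold higher in H6 (q = 1.53e-08) in the authors' deposited table. SLC5A3 and MRPS6 were thus both higher in 3 of the 4 comparisons, and the reads of the common first exon cannot be assigned to either from these values.

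The stretch before that shared RefSeq start is shown because both RefSeq transcripts lie behind it. This stretch falls inside the GENCODE v29 span of MRPS6, which begins at 34073224, but outside annotated exons. It covers chr21:34073328-34073522 on the plus strand of GRCh38.p14 and is taken from the RefSeq promoter window up to 55 bases before the start; it is 195 bases long and 88.2% G or C. Capitals mark the 3 matches to GGGGCGGGG, the letters that SP and KLF factors bind, searched on both strands.
MRPS6 and SLC5A3: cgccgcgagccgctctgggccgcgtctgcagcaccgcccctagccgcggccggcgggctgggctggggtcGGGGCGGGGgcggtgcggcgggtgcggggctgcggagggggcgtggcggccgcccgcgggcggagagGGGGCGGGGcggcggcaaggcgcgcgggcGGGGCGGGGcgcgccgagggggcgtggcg
The same letters occurred in the windows of 26.1% of the mitochondrial ribosomal protein genes and of 34.2% of all genes, so a match describes the sequence and is no site of binding.

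**Figure D2:**
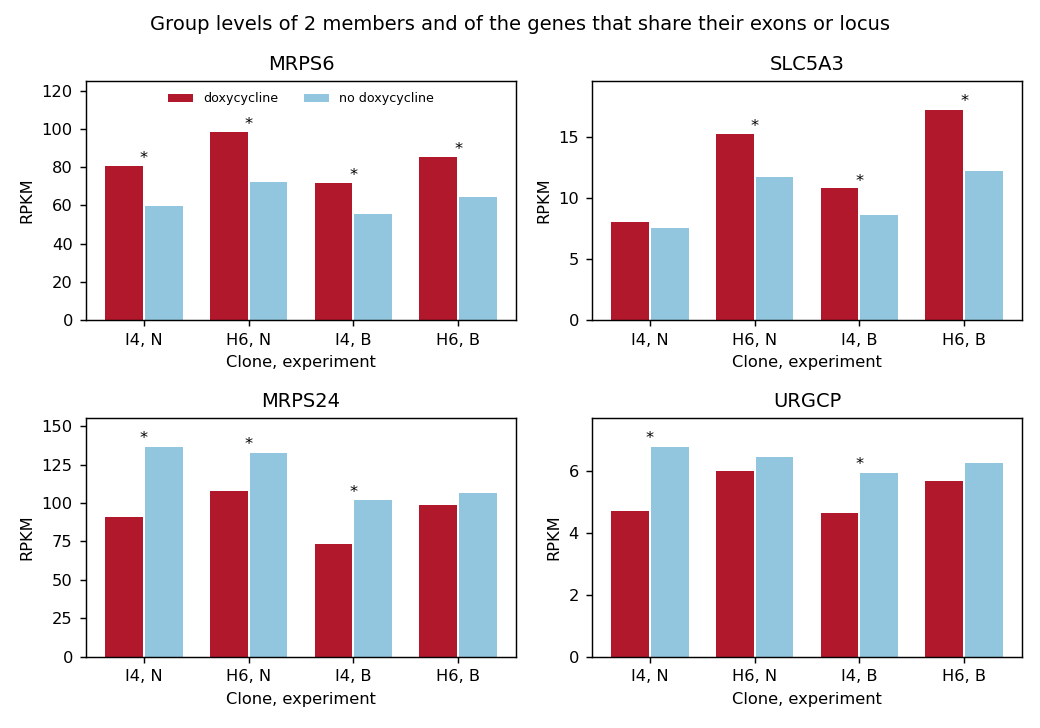
Bars are group levels in RPKM from the authors' deposited table, with doxycycline (red, left) and without (blue, right), for MRPS6 and SLC5A3, which share a start, and for MRPS24 and URGCP, which neighbour each other; an asterisk marks a q-value under 0.05. MRPS6 is higher with doxycycline in each of the 4 pairs, and MRPS24 lower in each, without a call in H6-B.

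MRPS24 (ENSG00000062582.13) was the member with the largest fall. It encodes the counterpart of a bacterial protein that lines the entry of the mRNA channel, and occupies bases 43866558 to 43869893 of chromosome 7 (minus strand). In I4-N MRPS24 had about 90.9 RPKM with doxycycline and 136 RPKM without, 1.50-fold lower in the authors' deposited table (q = 4.14e-07). In H6-N it had about 108 RPKM with doxycycline and 132 RPKM without, 1.23-fold lower in the authors' deposited table (q = 0.0366). In I4-B it had about 73.2 RPKM with doxycycline and 102 RPKM without, 1.39-fold lower in the authors' deposited table (q = 3.26e-09). MRPS24 therefore fell in 3 comparisons. In H6-B it was 1.08-fold lower and not called in the authors' deposited table (q = 0.678). At least 3 calls with 1 sign were found in 5.02% of all genes for falls and 3.88% for rises. The folds of I4 were larger than those of H6 in both experiments, a difference that was not tested.

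MRPS24 is also part of a read-through transcript. The annotated gene URGCP-MRPS24 overlaps 606 bases, 23.2%, of the exons of MRPS24 on the same strand. URGCP, the upstream partner, was 1.44-fold lower in I4-N (q = 4.85e-11) and 1.28-fold lower in I4-B (q = 0.000205) in the authors' deposited table. In clone H6 the authors' deposited table lists URGCP at 1.08-fold lower in experiment N (q = 0.447) and 1.11-fold lower in experiment B (q = 0.508), neither called. URGCP and MRPS24 thus both fell in clone I4. The joint gene itself stood at 0.066 to 1.5 RPKM in the 8 groups, and the authors' deposited table has folds for it from 3.72-fold lower in I4-B (q = 0.0237) to 22.8-fold higher in H6-B (q = 0.000632).

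The 4 members called in 2 comparisons each all belong to the large subunit, and the share of all genes called in 2 was not computed. MRPL4, whose bacterial counterpart lines the exit tunnel of the new protein, fell in clone I4. It had about 52.4 RPKM with doxycycline and 61.4 RPKM without in experiment N, 1.17-fold lower in the authors' deposited table (q = 0.00843), and about 20.8 RPKM with doxycycline and 26.1 RPKM without in experiment B, 1.25-fold lower (q = 0.000267). For clone H6 the authors' deposited table lists MRPL4 at 1.11-fold lower in experiment N (q = 0.166) and 1.10-fold lower in experiment B (q = 0.514), neither called. MRPL4, MRPS6 and MRPS24 were the members called with 1 sign in both experiments of the same clone. The share of all genes called in this way was not computed.

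MRPL15, a core protein of the large subunit, was 1.23-fold lower in H6-N (q = 0.00755) and 1.22-fold lower in I4-B (q = 0.0156) in the authors' deposited table. Its other folds there were 1.12-fold lower in I4-N (q = 0.265) and 1.24-fold lower in H6-B (q = 0.182). MRPL32, which is trimmed by a protease of the inner membrane before it is built into the ribosome, was 1.16-fold lower in H6-N (q = 0.0358) and 1.19-fold lower in I4-B (q = 0.022) in the authors' deposited table. Its largest fold in the authors' deposited table, 1.22-fold lower in I4-N, was not called (q = 0.0557). The 3 members MRPL4, MRPL15 and MRPL32 had negative folds in all 4 comparisons.

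MRPL55 rose, and in experiment N alone was it called. In I4-N it had 27.6 RPKM with doxycycline and about 22.1 RPKM without, 1.25-fold higher in the authors' deposited table (q = 0.0205). In H6-N it had 31.8 RPKM with doxycycline and about 23.8 RPKM without, 1.34-fold higher in the authors' deposited table (q = 0.00126). In experiment B the authors' deposited table lists MRPL55 at 1.04-fold lower in I4 (q = 0.966) and 1.03-fold higher in H6 (q = 1). Experiments differ in passage and library kit together, and the difference between them was not tested.

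The 13 members called once had folds between 1.15 and 1.29. In experiment N MRPL40 was 1.17-fold higher in I4 (q = 0.0338), and in H6 MRPL28 and MRPS11 were each 1.21-fold higher (q = 0.00225 and q = 0.0039) in the authors' deposited table. MRPL34, MRPS15 and MRPL58, a peptidyl-tRNA hydrolase that frees stalled ribosomes, were the other 3 called higher in H6-N, at 1.19-fold, 1.15-fold and 1.15-fold in the authors' deposited table. These 6 rises all lay in experiment N. MRPL37 was 1.21-fold lower (q = 0.00115) and MRPS30, which sits in the large subunit despite its name, 1.16-fold lower (q = 0.0335) in I4-N of the authors' deposited table.

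In experiment B the members called once all fell. In I4 MRPS5, a protein near the decoding site, and MRPL52 were each 1.23-fold lower (q = 0.00115 and q = 0.012), and MRPS7, a protein of the head of the small subunit, 1.15-fold lower (q = 0.0445) in the authors' deposited table. In H6 MRPS25 had about 5.84 RPKM with doxycycline and 7.51 RPKM without, 1.29-fold lower in the authors' deposited table (q = 0.00154). MRPS28 had about 19.5 RPKM with doxycycline and 23.9 RPKM without in H6-B, 1.22-fold lower in the authors' deposited table (q = 0.016). Apart from MRPS6, no member was called higher in experiment B.

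**Figure D3:**
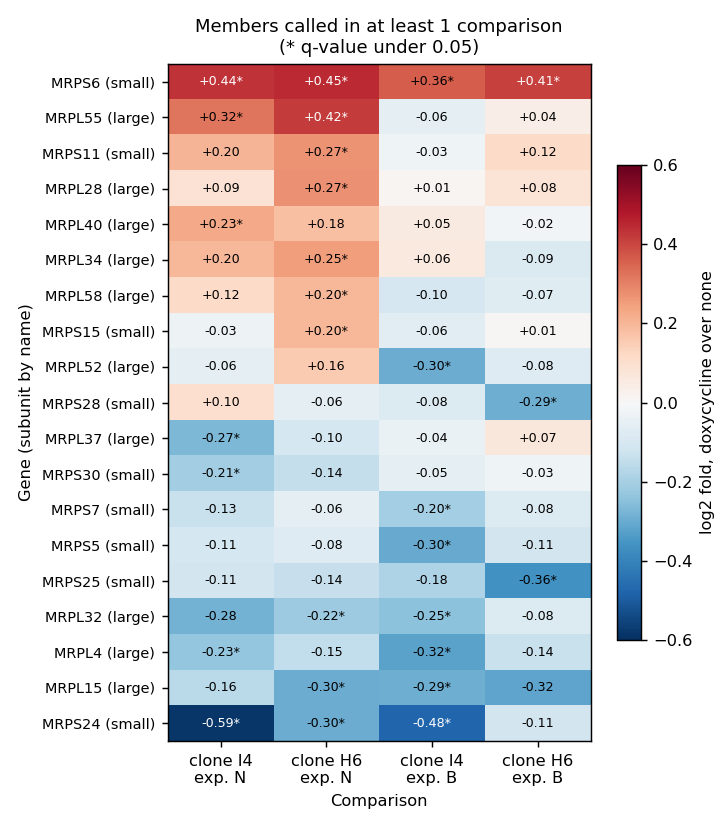
Rows are the 19 mitochondrial ribosomal protein genes called in at least 1 comparison, ordered by their mean log2 fold, and columns are the 4 comparisons; colour and number give the log2 fold of the authors' deposited table, doxycycline over none, and an asterisk a q-value under 0.05. The row of MRPS6 is called in each column, and rises other than those of MRPS6 are called in the columns of experiment N.

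The protein of the decoding site, MRPS12, whose bacterial counterpart monitors the match of codon and tRNA, was not called in any comparison. The authors' deposited table lists it at 1.00-fold in I4-N (q = 1), 1.10-fold higher in H6-N (q = 0.572), 1.17-fold lower in I4-B (q = 0.0802) and 1.04-fold lower in H6-B (q = 1). The 3 paralogs of a bacterial small subunit protein, MRPS18A, MRPS18B and MRPS18C, were not called either. The authors' deposited table lists folds for them from 1.05-fold lower for MRPS18B to 1.12-fold higher for MRPS18A. In the split by descent above, only MRPS18C was counted as a bacterial homolog, and MRPS18A and MRPS18B as mitochondria-specific. MRPS10 had nearly the same fold each time, 1.11-fold higher in all 4 comparisons of the authors' deposited table, and was called in none (q = 0.175 to 0.388).

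Levels differed among members far more than they differed with doxycycline. The mean of the 4 higher group means ranged from 5.17 to 131 RPKM with a median of 22.9 RPKM, and the median over all genes of at least 1 RPKM was 8.82 RPKM. MRPS16, MRPS24 and MRPL12 stood highest, at 131, 119 and 106 RPKM, and MRPL42, MRPL50 and MRPS14 lowest, at 5.17, 5.22 and 5.85 RPKM. MRPL12, which also binds the mitochondrial RNA polymerase, was not called, and the authors' deposited table has it 1.01-fold to 1.12-fold lower. Subunits had like medians, 22.8 RPKM for the large and 23.0 RPKM for the small subunit. The order of the genes by level was nearly kept between comparisons, with Spearman's rho between 0.889 and 0.982 over the 78 genes, which describes genes measured in the same libraries and is no test.

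Levels also differed between the experiments. The level here is the higher group mean, with or without doxycycline, so a ratio can set a treated group against an untreated one. For MRPL52 in H6 the higher group had doxycycline in experiment N and none in B. MRPL52 stood 2.56-fold higher in experiment N than in B in I4 and 2.96-fold higher in H6, and MRPL23 2.45-fold and 2.12-fold higher. MRPL4 was 2.36-fold and 2.06-fold and MRPL41 2.42-fold and 1.97-fold higher in experiment N than in B. The lowest ratio was that of MRPS31, at 0.596 in I4 and 0.637 in H6. Over the 78 genes the log2 ratio of the levels followed the GC content of the longest transcript at Spearman's rho = 0.62 in I4 and 0.43 in H6, and over all genes at 0.67 and 0.49. The experiments differ in library kit, depth and passage, which cannot be told apart. Folds within an experiment do not carry this ratio, but they are not free of a relation to GC content. In I4-B the log2 folds followed it at rho = -0.24 over the 78 genes and -0.29 over all genes. Over the 78 genes rho was 0.02 in I4-N, 0.18 in H6-N and -0.04 in H6-B.

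**Figure D4:**
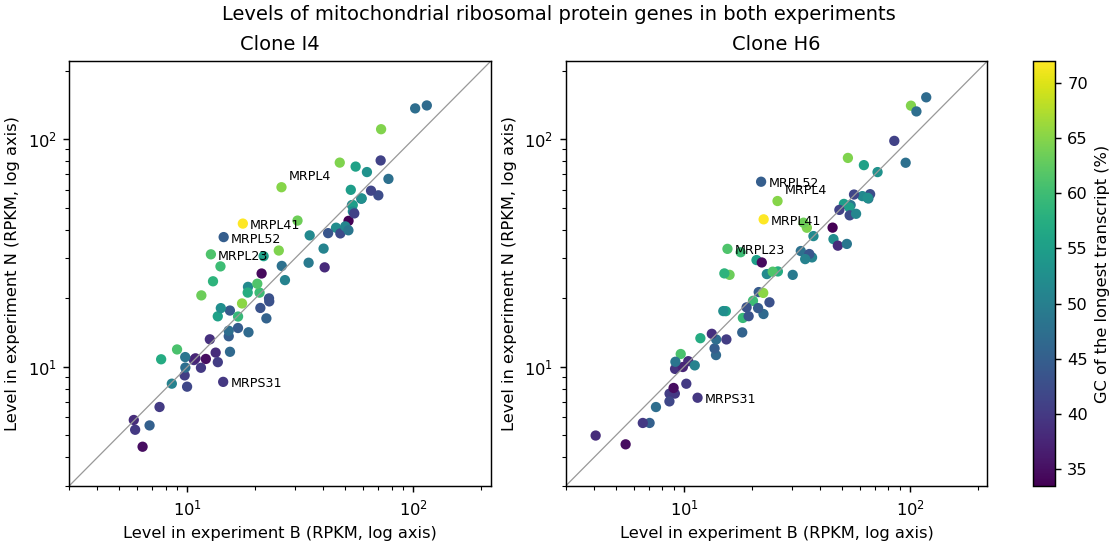
Each point is 1 of the 78 genes; the horizontal axis gives its higher group mean in experiment B and the vertical axis that in experiment N, both in RPKM on log axes, for clone I4 (left) and H6 (right), and colour gives the GC content of its longest transcript. Points above the diagonal, such as MRPL52, MRPL41, MRPL23 and MRPL4, stood higher in experiment N.

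The clones were also set side by side without doxycycline. In H6 over I4 the levels without doxycycline had a median log2 ratio of 0.002 in experiment N and 0.08 in experiment B. An absolute log2 ratio over 0.3 with the same sign in both experiments was found for 8 genes, MRPL12, MRPL27, MRPL35, MRPL43, MRPL52, MRPS7, MRPS25 and MRPS36. MRPL52 was 1.57-fold and 1.52-fold higher in H6 than in I4 in experiments N and B. MRPS25 had ratios of 0.671 and 0.767, and MRPS36 of 0.746 and 0.764, so both stood lower in H6. Over the 78 genes this log2 ratio correlated between the experiments at Pearson's r = 0.85, with the clones as the thing shared.

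Across genes, the folds of the 2 clones ran together within an experiment. Over the 78 genes the log2 folds of I4-N and H6-N had a Pearson's r of 0.78 and a Spearman's rho of 0.71, and those of I4-B and H6-B had 0.65 for both. For I4-N and I4-B the values were 0.59 (r) and 0.41 (rho), and for H6-N and H6-B they were 0.44 (r) and 0.29 (rho). Without MRPS6 and MRPS24 the correlation between experiments was r = 0.41 in I4 and 0.34 in H6, so part of it rested on that pair of genes. Over all genes the correlations between experiments were r = 0.72 in I4 and 0.56 in H6. Those between the clones were r = 0.71 in experiment N and 0.58 in experiment B over all genes. The comparisons have no library in common, but those of an experiment share the kit and passage, and genes are not independent replicates.

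The promoters were examined for letters that factors of nuclear genes for mitochondrial proteins bind. A RefSeq window from 250 bases before to 50 bases after the start was found for 69 of the 78 genes and for 8650 genes of at least 1 RPKM in all, and both strands were searched. The YY1 letters AAGATGGC occurred in 21 of the 69 genes (30.4%) and in 7.03% of all genes. The letters CCGGAAG, bound by ETS factors such as GABP, occurred in 30 (43.5%), against 24.3% of all genes. The motif of the factor NRF1, GCGC and TGCGC with 1 free base between them, occurred in 9 (13%) and in 14.4% of all genes, and the E-box CACGTG, bound by MYC among others, in 9 (13%) and in 12.8%. A match is a description of the letters, and binding was not measured.

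Sites of the YY1 letters are printed for 9 of the genes named here, since these letters were the most frequent relative to all genes; MRPL36, MRPL46, MRPS7 and MRPS10 hold them too. Each line gives the strand of the gene from 5′ to 3′ with the match in capitals, AAGATGGC or its reverse complement, on GRCh38.p14 from RefSeq.
MRPS24, chr7:43869482-43869507, minus strand: gcttggcccAAGATGGCggcctccgt
MRPS30, chr5:44808951-44808976, plus strand: tcgcgggcaAAGATGGCggcggccag
MRPS18A, chr6:43687766-43687791, minus strand: aggtttttgAAGATGGCggccctcaa
MRPS18B, chr6:30617854-30617879, plus strand: gcgtacgtcAAGATGGCggcgtctgt
MRPL42, chr12:93467513-93467538, plus strand: gattgaaacAAGATGGCgggttcgtg
MRPL50, chr9:101398579-101398604, minus strand: atctcatcgAAGATGGCggcgcgatc
MRPL52, chr14:22829780-22829805, plus strand: cgatgacccAAGATGGCggagccgtg
MRPL52, chr14:22829814-22829839, plus strand: cccagattcAAGATGGCgacttcctg
MRPL32, chr7:42932145-42932170, plus strand: ccgcgctccGCCATCTTtacccgaag
MRPS12, chr19:38930723-38930748, plus strand: atggacgcaGCCATCTTggaccggga
Of all matches in these windows, 16 lay after the start and 8 before it. In the sites of MRPS24, MRPS30, MRPS18A, MRPS18B, MRPL42 and MRPL50 the match contains the bases ATGG that also open many coding sequences, and its place relative to the start codon was not examined.

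Folds were also set beside the promoter letters, with no test. The median log2 fold of the 21 with the letters was -0.02 in I4-N and 0.004 in H6-N, and -0.08 in I4-B and -0.03 in H6-B. That of the other genes with a window was 0.02 and 0.06 in I4-N and H6-N, and -0.06 and -0.02 in I4-B and H6-B. For the ETS letters the medians with them were 0.002, 0.10, -0.06 and -0.02, and those without were -0.02, 0.004, -0.08 and -0.03, in I4-N and H6-N and in I4-B and H6-B.

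Many of these genes start back to back with a neighbour on the other strand. A protein-coding gene of at least 1 RPKM starting within 1000 bases in the opposite direction was found for 23 of the 78 genes (29.5%) and for 15.2% of 10711 protein-coding genes. MRPL46 and MRPS11 are such a pair, with starts 34 bases apart. TWNK, the helicase that unwinds mitochondrial DNA, starts 148 bases from MRPL43. TWNK fell in all 4 comparisons, by 1.39-fold and 1.30-fold in I4-N and H6-N and by 1.22-fold and 1.24-fold in I4-B and H6-B of the authors' deposited table (q = 0.0208 or less). MRPL43 was not called, and the authors' deposited table has folds for it from 1.00-fold lower to 1.13-fold higher. Partners were called in 3, 3, 1 and 2 of 24 pairings in I4-N, H6-N, I4-B and H6-B (12.5%, 12.5%, 4.17% and 8.33%). Of all genes 22.9%, 20.3%, 19.1% and 10.3% were called. In none of these pairings was the member also called, but with so few calls this count says little. MRPL46 and MRPS11 were counted from each side, and MRPL32 with both AC010132.3 and PSMA2. MRPS11, itself a member, was among the partners called in H6-N. The share for all such gene pairs was not computed.

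Overlap of exons limits some of these values. Exons of 13 of the 78 genes overlap another gene of the table on the same strand and those of 22 overlap one on the opposite strand. Experiment N kept both strands, so reads of opposite genes cannot be told apart there. Besides MRPS6 and MRPS24, the genes discussed that overlap a gene on the same strand are MRPL12 (68.2% of its exons), MRPS28 (35.8%), MRPL33 (21.1%), MRPL46 (11.3%), MRPS5 (8.19%), MRPL28 (7.33%) and MRPS16 (0.716%). On the opposite strand the largest overlap with 1 gene is 47.0% for MRPS18A, 40.2% for MRPS18C, 32.7% for MRPL43, 22.2% for MRPS25, 16.3% for MRPS12, 13.5% for MRPS14 and 13.2% for MRPL34. It is 9.17% for MRPS11, 6.41% for MRPS7, 5.49% for MRPL37 and 0.679% for MRPL32. TWNK covers 4.17% of the exons of MRPL43. How such reads were counted is not known here.

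The rest of the mitochondrial translation system was read from lists of genes of at least 1 RPKM. Proteins of the ribosome that the naming rule does not cover had 1 of 5 called: AURKAIP1 was 1.16-fold higher in H6-N (q = 0.014) in the authors' deposited table, and DAP3 and CHCHD1 were not called. The share called in H6-N was 20%, beside 20.3% of all genes. Of 28 genes for ribosome assembly and rRNA modification, 1 was called higher in I4-N, and 1 lower each in H6-N and in I4-B. These shares of 3.57% each, and 0% in H6-B, lay below the 22.9%, 20.3%, 19.1% and 10.3% of all genes. The medians of this list were -0.10, -0.06, -0.06 and -0.07. NSUN4, METTL17 and MRM1, which modify the ribosomal RNA or help assembly, were not called in any comparison (q = 0.0733 or more in the authors' deposited table).

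Among 17 translation factors, 3 were called higher in I4-N and 2 in H6-N, and 2 lower in I4-B and 1 lower in H6-B. These shares of 17.6%, 11.8%, 11.8% and 5.88% lay below the 22.9%, 20.3%, 19.1% and 10.3% of all genes called in either direction. They lay above the shares of all genes called in the same direction. Those were 10.4% and 9.77% higher in I4-N and H6-N, and 9.02% and 5.35% lower in I4-B and H6-B. MTIF3, an initiation factor that keeps the subunits apart, was 1.38-fold higher in I4 (q = 0.00302) and 1.34-fold higher in H6 (q = 0.0469) in experiment N of the authors' deposited table. GFM2, which recycles ribosomes, was 1.22-fold and 1.18-fold higher in I4-N and H6-N (q = 0.00153 and q = 0.0137) in the authors' deposited table. In experiment B the authors' deposited table has MTIF3 at 1.13-fold and 1.17-fold higher in I4 and H6, neither called. MRRF, the other recycling factor, was 1.23-fold lower in H6-B (q = 0.0435) in the authors' deposited table.

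The mitochondrial aminoacyl-tRNA synthetases, which charge the tRNAs that the ribosome uses, were called only lower. Of 17, 5 fell in I4-N and 5 in H6-N, 2 in I4-B and 1 in H6-B. The shares called lower were 29.4%, 29.4%, 11.8% and 5.88%, beside 12.6%, 10.5%, 9.02% and 5.35% of all genes. In either direction 22.9%, 20.3%, 19.1% and 10.3% of all genes were called. VARS2 was 1.20-fold, 1.26-fold and 1.25-fold lower in I4-N and H6-N and in H6-B, and 1.12-fold lower without a call in I4-B (q = 0.207) in the authors' deposited table. CARS2 was called in 3 comparisons of the authors' deposited table, 1.16-fold to 1.20-fold lower, and MARS2 1.38-fold and 1.42-fold lower in both experiments of I4. None of the 17 was called in all 4.

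The mRNAs that the ribosome translates differed between the experiments. Of the 13 mitochondrially encoded subunits, 12 fell in I4-N and 5 in H6-N, with medians of -0.65 and -0.55. In experiment B 2 rose in I4 and 1 in H6, with medians of 0.07 and 0.17, and none fell. The shares called in I4-N, H6-N, I4-B and H6-B were 92.3%, 38.5%, 15.4% and 7.69%. Of all genes 22.9%, 20.3%, 19.1% and 10.3% were called. MT-ATP8 was 4.17-fold lower in I4 (q = 4.2e-07) and 3.10-fold lower in H6 (q = 0.0188) in experiment N, and 1.46-fold higher in I4-B (q = 1.96e-11) in the authors' deposited table. Most of these RNAs carry short poly(A) tails, and libraries were poly(A)-selected. The part of selection, kit or passage in this difference between the experiments was not tested.

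Nuclear genes of oxidative phosphorylation and of the cytosolic ribosome had more calls in experiment N than the mitochondrial ribosomal proteins. Of 81 nuclear oxidative phosphorylation subunits, 23 rose and 1 fell in I4-N and 22 rose and 2 fell in H6-N, with medians of 0.16 and 0.12. In experiment B 0 rose and 2 fell in I4 and 1 rose in H6, with medians of 0.002 and -0.01. Of 84 cytosolic ribosomal proteins, 10 rose and 4 fell in I4-N and 25 rose in H6-N, with medians of 0.11 and 0.13, and 1 fell in I4-B and 1 rose in H6-B. In the order I4-N, H6-N, I4-B and H6-B, 29.6%, 29.6%, 2.47% and 1.23% of the oxidative phosphorylation subunits were called. For the cytosolic ribosomal proteins these shares were 16.7%, 29.8%, 1.19% and 1.19%, beside 22.9%, 20.3%, 19.1% and 10.3% of all genes. The mitochondrial ribosomal proteins, with medians of 0.0002 and 0.03 in experiment N, lay nearer to all genes there. Whether the sets differ was not tested.

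**Figure D5:**
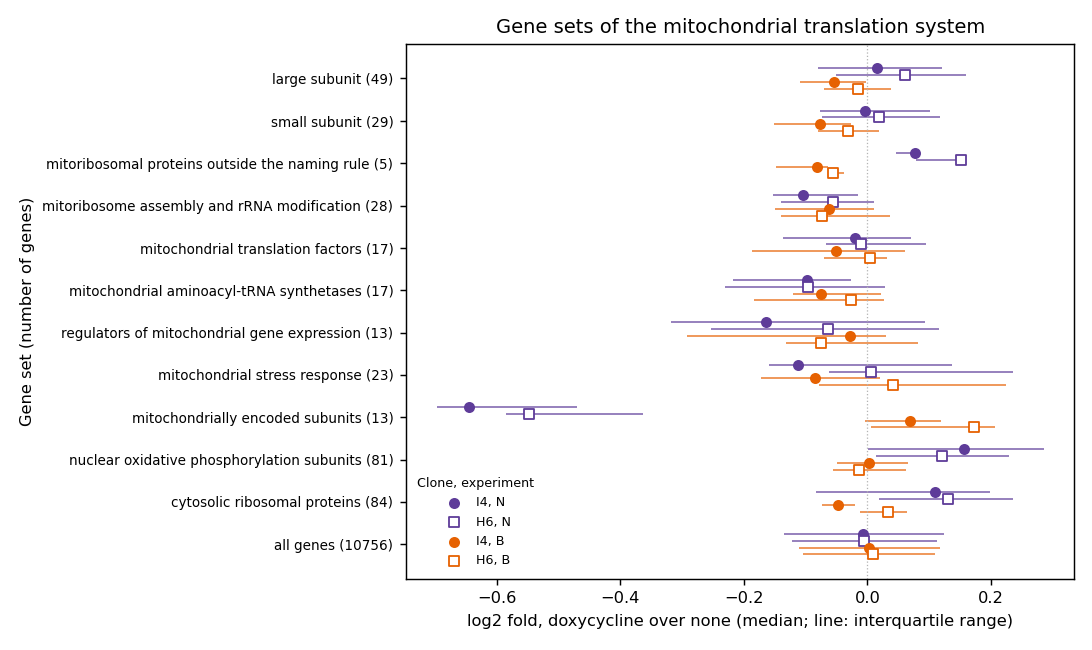
Each marker is the median log2 fold of a gene list in 1 comparison, doxycycline over none, and its line the interquartile range over the genes of the list; filled circles are clone I4, open squares clone H6, purple experiment N and orange experiment B. Both ribosomal subunits lie within 0.1 of 0 throughout, and the mitochondrially encoded subunits lie far to the left in experiment N only.

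Among listed regulators of mitochondrial gene expression, those called were mostly lower. Of 13 measured, 6 fell in I4-N and 5 fell and 1 rose in H6-N, 4 fell in I4-B and 2 in H6-B. The shares called in either direction were 46.2%, 46.2%, 30.8% and 15.4%, beside 22.9%, 20.3%, 19.1% and 10.3% of all genes. PPARGC1B, a coactivator that raises mitochondrial gene expression, fell in all 4 comparisons of the authors' deposited table, with folds between 1.48 and 1.59 and levels of at most 1.71 RPKM. MYC, which drives genes of growth and mitochondrial biogenesis, also fell in all 4, and its folds there lay between 1.20 and 1.40 in the authors' deposited table. NRF1, YY1 and GABPA of GABP, whose letters were searched above, did not fall in all 4. In the authors' deposited table NRF1 ranged from 1.03-fold lower to 1.03-fold higher and YY1 from 1.06-fold lower to 1.10-fold higher. GABPA was 1.08-fold to 1.19-fold higher there. Whether MYC acts on the mitochondrial ribosomal protein genes in these cells was not tested.

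Genes that respond to failing mitochondrial translation were mixed. Of 23 measured, 2 rose and 3 fell in I4-N and 5 rose and 1 fell in H6-N, while 2 fell in I4-B and 4 rose in H6-B. The shares called were 21.7%, 26.1%, 8.7% and 17.4%, beside 22.9%, 20.3%, 19.1% and 10.3% of all genes. GDF15, a secreted stress hormone, was 2.46-fold higher in H6-N and 2.65-fold higher in H6-B (q listed as 0 both times), 1.31-fold higher in I4-N (q = 0.00566) and 1.04-fold higher in I4-B (q = 1) in the authors' deposited table. DDIT4, a stress-induced inhibitor of growth signalling, was 2.01-fold and 2.02-fold lower in I4 in experiments N and B (q listed as 0 both times) and 1.29-fold lower in H6-N (q = 0.00861) in the authors' deposited table. DNAJA3, a mitochondrial chaperone, was 1.18-fold lower in both experiments of I4 (q = 0.0096 and q = 0.0163) in the authors' deposited table. No gene of this list was called in all 4 comparisons.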

How the data were processed

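Poly(A)-selected RNA of PC-3 clones was sequenced from 23 libraries in 8 groups, per the labels' protocols. The genome build was hg38, per the submitters' processing notes. The programs that aligned and counted reads, and the test, are not known from the sources used here. The authors' deposited table holds 4 comparisons of doxycycline with none and no value per library. Its level is the higher group mean; the RPKM unit was read from the deposited values, since the file does not name it. The signed fold is the authors' own and no plain ratio of means, since genes seen by a single read have finite folds (median size 3.54 to 3.62), so levels of the lower group are approximate. The q-value was deposited by the authors, with no word on how it was adjusted.

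The planned tests on values per library could not be run, and no test was added. A gene was called at a q-value under 0.05, and a mean of the 4 levels of at least 1 RPKM was required for sets (10756 genes). Folds were put on the log2 scale. Names were matched to GENCODE v29 for exon length, GC and position (99.6% of rows), and to RefSeq promoter windows (69 of 78 members). Counts of calls and the ratios of group levels obtained from the folds were checked on simulated data, and medians were not. Named are the members called in at least 3 comparisons, the 4 largest rises and falls called per comparison, members called in both experiments of a clone, the 3 highest and lowest levels, MRPS12 and the MRPS18 paralogs, and up to 3 genes of each related list. Other members with values, SLC5A3, URGCP, TWNK, NRF1, YY1 and GABPA were picked with their values in view. The members and lists were chosen with earlier results of these data known. Alternatives were a q-value under 0.01, a minimum fold, other level minimums, centring, a pseudocount and another subunit assignment. Python 3.11.15 with pandas 2.3.3, numpy 2.4.6 and matplotlib 3.10.9 was used.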

Additional observations from a re-analysis of the deposited data

How the results depend on the processing

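At a q-value under 0.01 the members called were 1 higher and 3 lower in I4-N, 5 higher and 1 lower in H6-N, 1 higher and 3 lower in I4-B, and 1 higher and 1 lower in H6-B. With an absolute log2 fold of at least 0.3 there were 2 higher and 1 lower in I4-N, 2 higher and 0 lower in H6-N, 1 higher and 3 lower in I4-B, and 1 higher and 1 lower in H6-B. Both settings only make the requirement stricter. The call of MRPS6 in all 4 comparisons was the same under both settings, and of the 28 calls over the 4 comparisons 12 were lost at a q-value under 0.01. The medians of both subunits moved by at most 0.0125 on the log2 scale under centring on all genes, a pseudocount of 1 RPKM, a level minimum of 10 RPKM, no level minimum and a grouping by the assembled ribosome, with MRPS30 and MRPS18A in the large subunit and MRPS36 in neither. No called value changed its sign under these settings. Centring turned the sign of 2 values near 0 in I4-N, the median of the small subunit and the fold of MRPS12, both 0.0034 centred and -0.0045 as deposited on the log2 scale. No paired analysis was possible because no value per library was analysed, and for the same reason no replicate could be left out. Reads were fewest for MRPL54, with about 203 per library at the low end. Since wells of 1 clone are the replicates, small changes of a whole set below the spread between wells could not be tested.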
